A study of Mus musculus with 2 samples.

Results

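The miRNA genes followed here in mouse calf muscle are known from blood cells. They are Mir451a and Mir144 of red cells and Mir142, Mir150, Mir155, Mir146 and Mir223 of white cells. They were taken by gene name from the GENCODE M21 annotation and not by a limit on counts. All 7 of 7 names were found among the 2202 counted miRNA genes. The set was chosen with earlier results of these data known. The gastrocnemius came from female B6CASTF1/J mice of 10 days, a first-generation cross of a C57BL/6 and a CAST parent supplied by The Jackson Laboratory. There are 2 libraries of total RNA, size-selected below 30 bases, which the labels number as biological replicates 1 and 2 with a different animal number each. Both fall in a single group, so the design holds levels and their spread, and no contrast between conditions. Whether blood was removed from the muscle before extraction is not given in the sources used here.

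A miRNA is cut from a hairpin precursor and guides an Argonaute protein to messenger RNAs that pair with its seed, bases 2 to 8. Mir144 and Mir451a are made as a single transcript under the erythroid factor GATA1, and red cells keep large amounts of miR-451a after they have lost their nucleus. Most hairpins yield an arm from either side after cleavage by Dicer, whereas miR-451a is known to be matured by Argonaute 2 without Dicer. Among the white cell genes, Mir142 is made throughout the blood lineages, Mir150 in mature lymphocytes and Mir223 in neutrophils and other myeloid cells. Mir155 rises in activated lymphocytes and macrophages, and Mir146 encodes miR-146a, a target of NF-kB that restrains innate immune signalling. The latter pair is also known from cells other than leukocytes, so a level in whole muscle does not assign it to a cell type.

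A count per gene sums every arm of its hairpin, and the arms were not counted apart. The mature sequences show which arms a count can hold. They are given from RefSeq on GRCm38.p6, the assembly also called mm10, 5′ to 3′, with the seed in capitals. All 7 members matched the RefSeq table, with 12 mature entries. The count of Mir150 covers both of its arms, but the entries used here hold only miR-150-3p. The sequence and seed of miR-150-5p are therefore not covered by the statements below.
miR-451a: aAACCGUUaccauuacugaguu
miR-144-5p: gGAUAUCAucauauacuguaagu
miR-144-3p: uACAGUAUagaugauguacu
miR-142a-5p: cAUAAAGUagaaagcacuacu
miR-142a-3p: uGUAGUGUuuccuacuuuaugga
miR-150-3p: cUGGUACAggccugggggauag
miR-155-5p: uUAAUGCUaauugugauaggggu
miR-155-3p: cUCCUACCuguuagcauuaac
miR-146a-5p: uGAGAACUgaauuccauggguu
miR-146a-3p: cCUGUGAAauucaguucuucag
miR-223-5p: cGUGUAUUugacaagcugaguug
miR-223-3p: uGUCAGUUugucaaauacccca
The 12 entries carry 12 different seeds, so no seed was shared among these arms. Among all 1738 mature entries of the table, the same 7-base seed recurred for 1 of these 12 arms. This was miR-146a-5p, whose seed is also that of miR-146b-5p from Mir146b on chromosome 19.
miR-146b-5p: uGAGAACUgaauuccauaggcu
Counted from 1 at the 5′ end, these sequences share 20 positions and differ by G18A and U21C, with the base of miR-146a-5p first. Mir146b had 1 read in replicate 1 and 4 in replicate 2, against 1249 and 1265 for Mir146. By gene, nearly all counted reads of this pair were thus on Mir146 in both libraries. Reads that aligned to both genes would be counted on neither, and reads with the seed were not counted as such.

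Mir451a stands apart from the other hairpins in where its mature sequence lies. Its hairpin of 72 bases (chr11:78073170-78073241, plus strand) is shown with the mature part in capitals, beside that of Mir144 (chr11:78073005-78073070, plus strand), whose arms flank the loop.
Mir451a: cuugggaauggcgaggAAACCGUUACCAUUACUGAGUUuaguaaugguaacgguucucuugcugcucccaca
Mir144: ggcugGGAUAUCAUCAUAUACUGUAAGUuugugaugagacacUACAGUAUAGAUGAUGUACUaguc
In the structure predicted by RNAfold, the terminal loop of Mir451a covers positions 35 to 38. The mature sequence runs from position 17 to 38, so 4 of its 22 bases are in the loop. In the other 5 members with a RefSeq hairpin, Mir144, Mir142, Mir155, Mir146 and Mir223, 0 bases of any mature arm lay in the predicted loop. RefSeq lists a single mature sequence for Mir451a and an arm on either side of the loop for these 5 genes. The structures are predictions for the annotated hairpins and were not measured here.

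**Figure D1:**
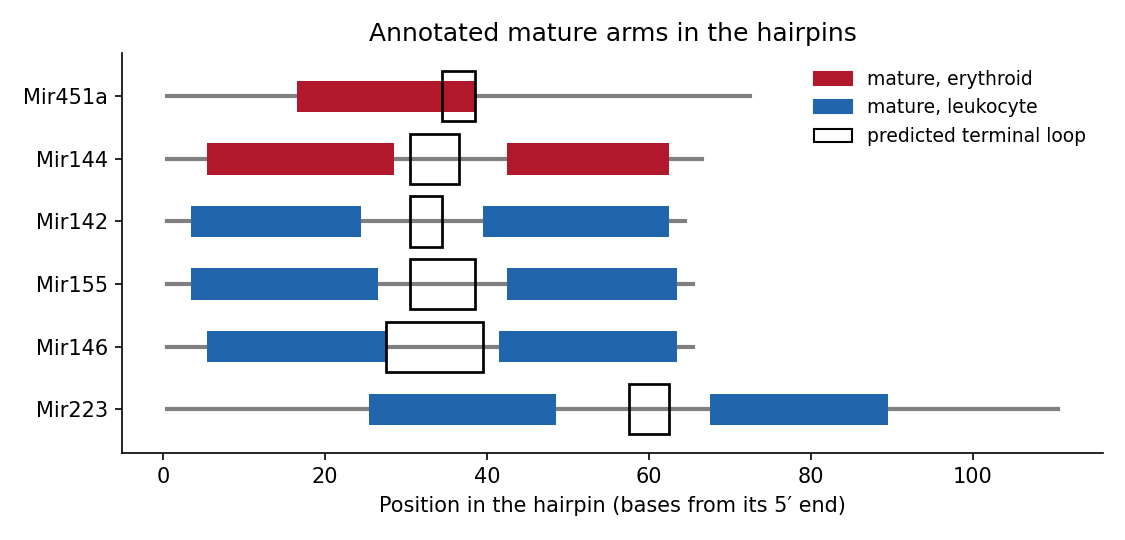
Position of the annotated mature sequences (filled bars) and the predicted terminal loop (open box) along the hairpins of 6 members, in bases from the 5′ end; the line is the hairpin. The mature sequence of Mir451a reaches into the loop, at positions 35 to 38, while the arms of the other 5 hairpins end before or start after theirs.

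The libraries held 3510897 sense reads on miRNA genes in replicate 1 and 3949733 in replicate 2, and levels are counts per 1000000 of these (CPM). A count was not divided by gene length, because a read in this size range was taken as a whole small RNA. Read lengths and ends were not examined, so whether some reads are pieces of longer RNAs was not tested. Intervals are Wilson 95% intervals of a library's share and cover counting error only. They treat each read as independent, and the reads carry no molecular identifiers to tell copies of a molecule apart. To check the labelled tissue, 9 striated muscle miRNAs were summed. They held 11.7% of reads in replicate 1 and 9.61% in replicate 2, nearly all on Mir206. Reads that aligned to several places were counted on no gene, so these shares cover only reads placed once. The muscle genes ranged down to 1.04 CPM on average, and what they lost in this way was not tested. Genes that reached 2 CPM in each library were counted as detected, and all 7 members were among the 332 genes that passed. Passing rested on both libraries and on no contrast.

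Mir451a was the highest of the set by a wide margin. It had 6709 reads in replicate 1, or 1911 CPM (interval 1866 to 1957), and 6760 reads in replicate 2, or 1712 CPM (1671 to 1753). Its mean was 1811 ± 141 CPM (SD, n = 2), rank 63 of the 332 detected genes, and the counting intervals of the libraries did not overlap. Mir144 had 545 reads in replicate 1, or 155.2 CPM (142.7 to 168.8), and 607 in replicate 2, or 153.7 CPM (141.9 to 166.4). With 154 ± 1.10 CPM (SD, n = 2) it was the steadiest member, and its libraries lay well inside each other's intervals. In whole tissue, fewer cells of a type and less of the RNA in each cell cannot be told apart.

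The neighbours on the erythroid transcript therefore differed strongly in counts. Their genes are 99 bases apart on the plus strand of chromosome 11, outside any annotated host gene, and Eral1, a GTPase gene of mitochondrial ribosome assembly, lies 134 bases past Mir451a on the other strand. Mir451a exceeded Mir144 by 12.3-fold in replicate 1 and 11.1-fold in replicate 2, a ratio that needs no scaling between libraries. It held 92.5% and 91.8% of the erythroid reads in replicates 1 and 2. The efficiency with which adapters join to a small RNA is known to vary with its sequence, and its part in the ratio was not tested. Together the pair made 0.207% (0.202% to 0.211%) of miRNA reads in replicate 1 and 0.187% (0.182% to 0.191%) in replicate 2.

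The level of Mir451a, and likewise of Mir142, could be read only with strand. Mir451b is annotated on the same 72 bases as Mir451a, on the minus strand, and its hairpin is the exact reverse complement. The mature part of Mir451b, in capitals here, overlaps the mature miR-451a by 0 bases of the genome.
Mir451b: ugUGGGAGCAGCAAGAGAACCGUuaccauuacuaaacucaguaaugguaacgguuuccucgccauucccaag
Mir142 (chr11:87756864-87756927, plus strand) likewise lies wholly inside Mir142b (chr11:87756841-87756955, minus strand), and here the mature miR-142b covers 20 bases of miR-142a-3p on the other strand.
Mir142: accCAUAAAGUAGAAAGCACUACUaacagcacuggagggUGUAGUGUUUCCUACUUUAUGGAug
miR-142b: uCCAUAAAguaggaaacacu
The minus-strand partners had 0 sense reads in both libraries. A count of 0 allows up to 3 reads, or 0.854 and 0.760 CPM in replicates 1 and 2. Relative to the member itself, this limit for Mir451b is 0.0447% and 0.0444% of the reads of Mir451a, and for Mir142b it is 0.568% and 0.698% of those of Mir142. Counted without strand, Mir451a and Mir142 had 0 reads in each library, since a read over genes on both strands was set aside as ambiguous. The other 5 members have no miRNA gene on the opposite strand and kept the same counts, and no member had an antisense read of its own. Reads of Mir451a and Mir142 made up 1.33% of the ambiguous reads in replicate 1 and 1.05% in replicate 2.

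**Figure D2:**
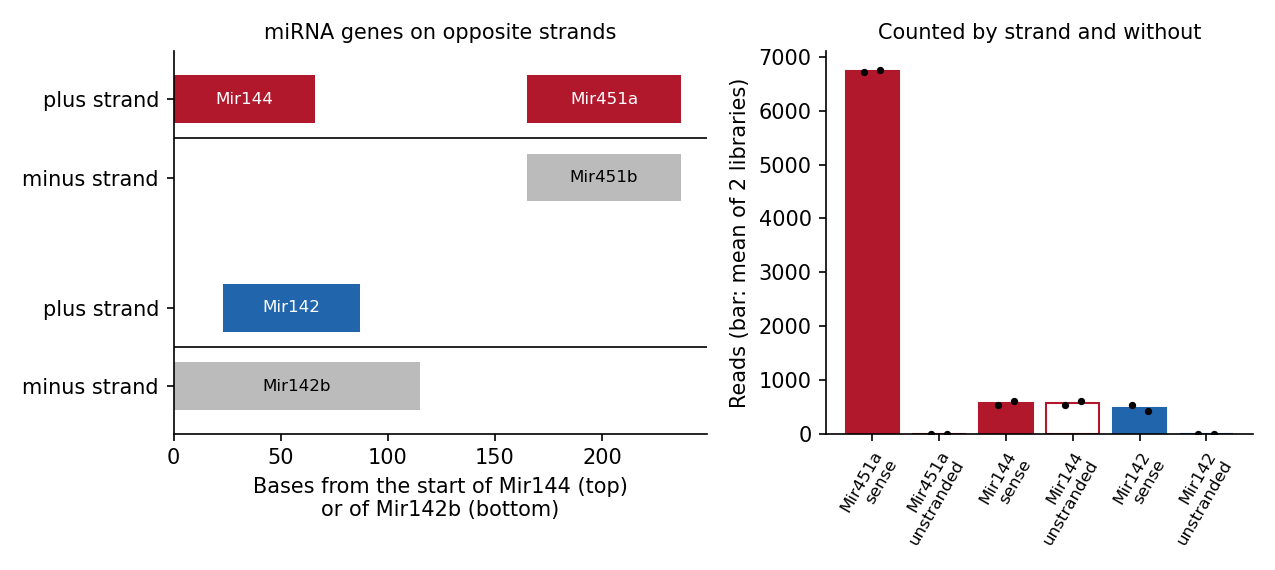
Left, miRNA genes at the Mir144-Mir451a and Mir142 loci by strand, with distance in bases from the start of the leftmost gene. Right, reads counted on the sense strand (filled) and without strand (open), where the bar is the mean and the points are the 2 libraries: Mir451a and Mir142 fall to 0 without strand, while Mir144 keeps 545 and 607 reads.

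The white cell genes spanned a narrow range, from 107 to 338 CPM on average, and Mir146 and Mir150 led. Mir146 (chr11:43374397-43374461, minus strand) stood at 355.8 CPM in replicate 1 and 320.3 CPM in replicate 2, and has no host gene in GENCODE M21. Its precursor shares a stretch of 21 bases with that of Mir146b, the longest between any member and an annotated precursor elsewhere. Whether reads of Mir146 were lost to this similarity was not tested. For the other 6 members the longest shared stretch was 11 to 13 bases, shorter than a mature miRNA. Mir150 (chr7:45121757-45121821, plus strand), also without a host, stood at 284.0 CPM in replicate 1 and 273.7 CPM in replicate 2.

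Mir155, the next in order, had overlapping intervals in the libraries. It stood at 180.6 CPM in replicate 1 and 185.8 CPM in replicate 2, and lies at chr16:84714140-84714204 in an exon of Mir155hg, the noncoding gene known for carrying it. The lowest members were those of the myeloid and general blood lineages. Mir142, in an intron of the noncoding gene Mir142hg, had 528 and 430 reads in replicates 1 and 2, or 150.4 CPM (138.1 to 163.8) and 108.9 CPM (99.1 to 119.7). Mir223 (chrX:96242817-96242926, plus strand), in an exon of the noncoding F630028O10Rik, had 451 and 338 reads, or 128.5 CPM (117.1 to 140.9) and 85.6 CPM (76.9 to 95.2). For both genes the intervals of the libraries were apart, with replicate 1 the higher.

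Within the white cell set the order of the shares was the same in both libraries. Mir146 made up 32.4% and 32.9% of the summed reads in replicates 1 and 2, Mir150 25.8% and 28.1%, and Mir155 16.4% and 19.1%. Mir142 made up 13.7% and 11.2%, and Mir223 11.7% and 8.78%. The set as a whole held 0.110% (0.107% to 0.113%) of miRNA reads in replicate 1 and 0.0974% (0.0944% to 0.101%) in replicate 2. Erythroid reads exceeded leukocyte reads by 1.88-fold in replicate 1 and 1.91-fold in replicate 2, with Mir451a alone above the 5 white cell genes together.

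**Figure D3:**
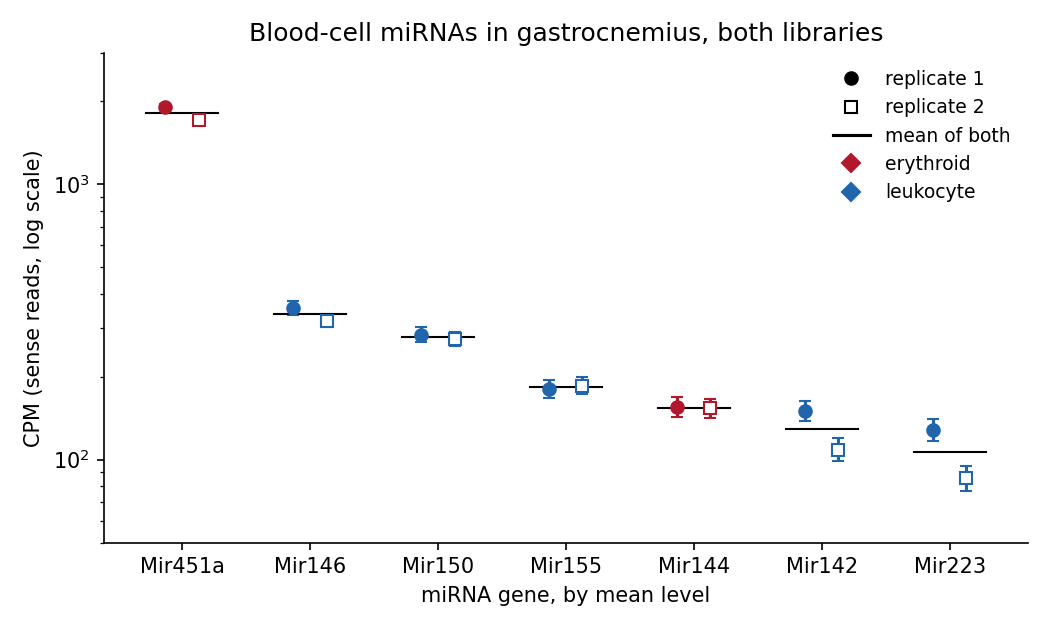
Level of each member in CPM of sense reads on a log axis, with replicate 1 as filled circles and replicate 2 as open squares, Wilson 95% counting intervals, and a line at the mean. Mir451a lies near 1811 CPM and the other 6 between 107 and 338 CPM, and Mir142 and Mir223 have the widest gaps between the libraries.

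In the order of mean levels, Mir451a was followed by Mir146, Mir150, Mir155, Mir144, Mir142 and Mir223. Mir451a exceeded Mir146 by 5.36-fold, and each later step was between 1.19-fold and 1.52-fold. Mir142 and Mir223 were the only neighbours whose libraries overlapped, while Mir142 was the higher of the pair within each library. The libraries of Mir155 and Mir144, and of Mir144 and Mir142, did not overlap but their counting intervals did. With 2 libraries the remaining steps, from Mir451a to Mir146, on to Mir150 and on to Mir155, were larger than the spread seen.

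The median detected gene stood at 129.7 CPM, and 5 of the 7 members were above it. Mir142 was just below the median at 129.6 CPM, and Mir223 at 107.0 CPM held rank 179. The genes nearest in mean level over the 2 libraries give a scale for these values. Mir451a stood between Mir98 (1882 ± 54.1 CPM) of the let-7 family and Mir154 (1729 ± 117 CPM) of the Dlk1-Dio3 imprinted region. Mir146 stood between Mir499, of a slow myosin gene (340 ± 5.66 CPM), and Mir18 (337 ± 11.0 CPM). Below Mir451a, each member was within 10 CPM of either neighbour. Mir150 lay between Mir412 (284 ± 16.8 CPM) and Mir377 (269 ± 0.0435 CPM), and Mir155 between Mir130b (184 ± 1.88 CPM) and Mir185 (181 ± 25.1 CPM). The remaining members stood lower on this scale. Mir144 lay between Mir362 (155 ± 3.04 CPM) and Mirlet7a-2 (151 ± 5.66 CPM), and Mir142 between Mir5099 (130 ± 4.19 CPM) and Mir3102 (124 ± 17.5 CPM). Mir223 lay between Mir125b-2 (108 ± 2.51 CPM) and Mir210 (102 ± 28.4 CPM), a miRNA of the response to low oxygen. Each ± here is the SD of 2 libraries.

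**Figure D4:**
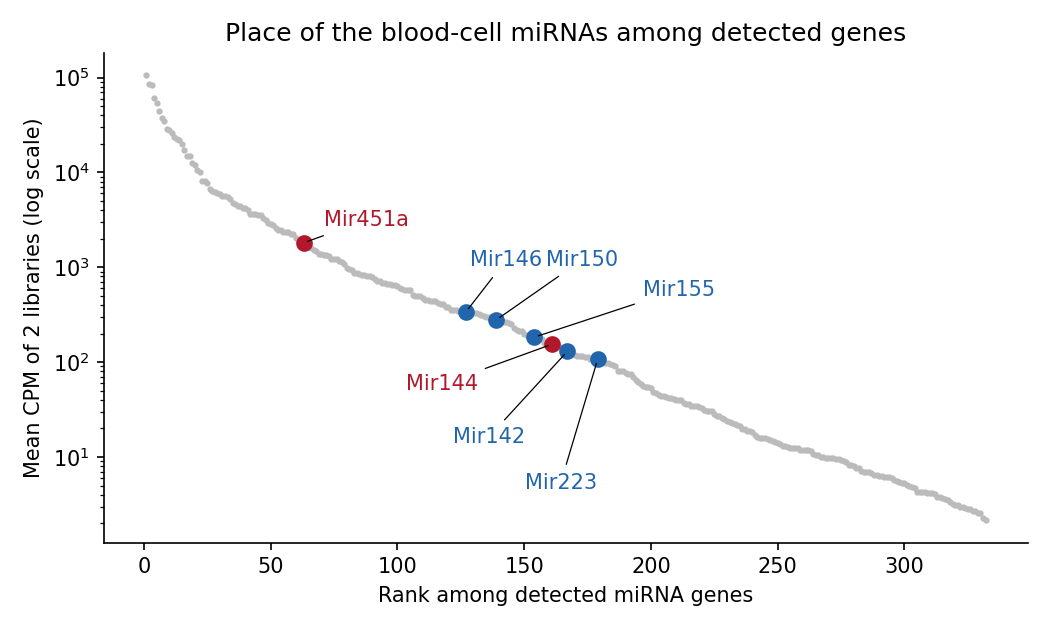
Mean CPM of the 2 libraries (log axis) against rank for the 332 detected miRNA genes, in grey, with the erythroid members in red and the leukocyte members in blue. Mir451a lies at rank 63, and the other 6 members lie together between ranks 127 and 179.

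Set beside lists named for other cell types, the blood-cell miRNAs held a smaller share of reads than the muscle, endothelial and stromal lists. Their share was larger than those of the nerve and liver lists. These lists run from 1 gene for liver to 9 for muscle, and reads aligned to several places were not counted. The order is therefore one of counted reads and does not rank cell types. Mir206, of muscle fibres, exceeded Mir451a by 60.7-fold in replicate 1 and 55.7-fold in replicate 2. Mir126a of endothelium exceeded it by 22-fold and 27.1-fold. The endothelial list held 4.2% and 4.63% of reads, and the stromal and smooth muscle list, led by Mir143, Mir214 and Mir145a, 2.75% and 3.28%. The nerve and glia list held 0.0250% and 0.0375%, led by Mir338 and with 3 of its 6 genes at 0 reads. These 3 are numbered copies of the same miRNA, and a read that aligned to several copies would be counted on none. Mir122 of liver held 0.0491% and 0.0176%. Of 22 other miRNAs named in blood and immune cells, 18 were detected, and together they held 2.27% ± 0.00404 (SD, n = 2) of miRNA reads. Most of this lay on Mir139 (10689 ± 558 CPM), Mir191 (4691 ± 67.2 CPM) and Mir21a (4408 ± 221 CPM), which are made in many tissues. Mir451b and Mir142b were the 2 at 0 reads, and Mir146b and Mir147, a miRNA induced in stimulated macrophages, stood at 0.649 and 0.949 CPM.

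To set the libraries side by side, an exact binomial test (two-sided, conditional on each gene's summed reads) was run on 395 genes, with Benjamini-Hochberg adjustment. It compares these 2 libraries, which the labels give different animal numbers but the same donor entry, and not conditions. At an adjusted p under 0.05 and a 2-fold limit, 0 of 7 members were called, against 7.09% of all genes tested. Without a fold limit 4 members passed, also 4 at an unadjusted p under 0.05, against 41.3% of all genes. All 4 were higher in replicate 1, where 24.3% of genes passed in that direction, and 0 were higher in replicate 2, where 17.0% did. Among the 117 tested genes between the lowest and the highest member in level, 68 passed without a fold limit. With 7 members, no result about the set is read from these counts, and the direction of the 4 was given no test of its own.

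Mir223 differed most. It was 1.5-fold higher in replicate 1 (95% interval 1.3 to 1.73, exact adjusted p = 8.3e-08). Mir142 followed, 1.38-fold higher in replicate 1 (1.21 to 1.57, exact adjusted p = 3.1e-06), and the ratio of Mir142 to Mir223 was 1.17 and 1.27 in replicates 1 and 2. Mir451a was 1.12-fold higher in replicate 1 (1.08 to 1.16, exact adjusted p = 1.0e-09), and is the member with the most reads. Mir146 was 1.11-fold higher there (1.03 to 1.20, exact adjusted p = 0.023). It did not pass with the size factors of DESeq2 (exact adjusted p = 0.17) or without strand (exact adjusted p = 0.093). Without strand its own counts were the same, and only the library totals and the set of genes tested differed.

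Mir150, Mir155 and Mir144 gave no difference past the threshold. As replicate 2 over replicate 1, the ratio was 0.964 for Mir150 (95% interval 0.883 to 1.05), 1.03 for Mir155 (0.924 to 1.15) and 0.990 for Mir144 (0.880 to 1.11). With the size factors of DESeq2 the ratio of Mir144 and of Mir150 turned to just above 1, so no direction is read for them. Over the 7 members the median log2 ratio was -0.15 and 6 were below 0 (the 2 that turn with DESeq2 factors included), while over all genes tested the median was -0.03 and 53.9% were below 0. In absolute size the median log2 difference was 0.15 for the members and 0.27 over all genes tested. It was 0.13 over the 117 tested genes between the lowest and the highest member in level, of which 68 passed without a fold limit and 2 with it. The list of 22 other blood and immune miRNAs had 18 tested genes, of which 4 passed as higher in replicate 1 and 4 as higher in replicate 2, with a median log2 ratio of -0.09.

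Markers of other tissues also differed between the libraries. Mir122 of liver was 2.79-fold higher in replicate 1 (95% interval 2.56 to 3.06), and Mir206 was 1.22-fold higher there (1.21 to 1.22). Of the 8 striated muscle genes tested, Mir206 was the 1 that passed as higher in replicate 1, and 3 passed as higher in replicate 2, with a list median log2 ratio of 0.32. Mir126a was 1.10-fold higher in replicate 2 (1.09 to 1.11), as was Mir338 of nerve by 1.51-fold (1.39 to 1.65). Of the 5 stromal genes tested, 2 passed as higher in replicate 1 and 1 as higher in replicate 2. Their part in the differences of Mir223, Mir142, Mir451a and Mir146 was not tested.

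**Figure D5:**
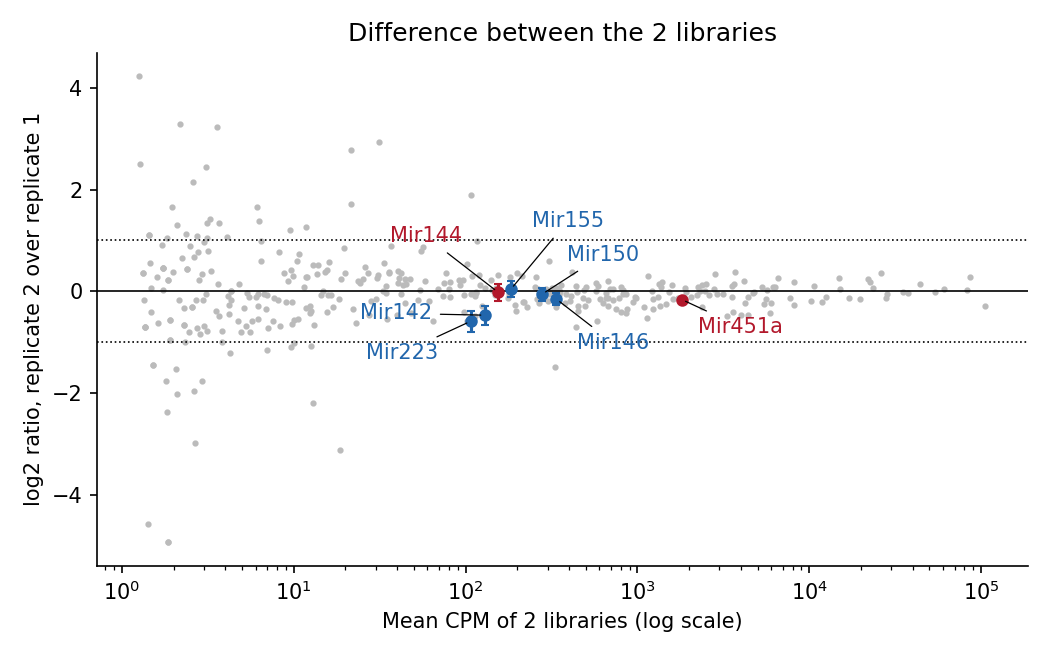
Log2 ratio of replicate 2 over replicate 1 against mean CPM (log axis) for the 395 tested genes, in grey, with the erythroid members in red and the leukocyte members in blue; bars are exact 95% intervals and dotted lines mark 2-fold. Mir223 and Mir142 lie lowest of the members at -0.59 and -0.47, and 0 members reach the dotted lines.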

How the data were processed

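The deposited files hold raw read counts per miRNA gene (unstranded, sense and antisense) with no normalization by the authors, as the values show. Per the descriptions deposited beside them, the build was mm10 and the annotation GENCODE M21. The aligner is not given in the sources used here, nor are trimming or filters, and the meaning of the columns was read from their layout and totals. Reads that aligned to several places, 42.6% and 46.4% of the files of replicates 1 and 2, were counted on no gene.

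The 4 summary rows stayed out of library totals. Sense counts were scaled to CPM. Levels are means ± SD of 2 libraries. The labels call the libraries biological replicates but give both the same donor entry, and p-values measure only the difference between these libraries. Over 386 genes chi-square per degree of freedom was 90.8, so they were not 1 library deposited in duplicate. The binomial test took genes whose summed count reached 10, and its log2 ratios add 0.5 to each count. It was checked on counts simulated with counting error only, so the check does not cover spread between animals. Alternatives used edgeR 4.0.16, DESeq2 1.42.0, unstranded counts, other denominators, other limits and leaving out a library. Hairpins were folded with RNAfold 2.7.2, and shared stretches were searched among 2202 precursors on both strands. Text names the members, the genes next to each in level, on the opposite strand, within 10 kb or of the same seed, host genes, and the most abundant genes of each other list, up to 3. Mir147 falls outside this rule and was named after its values were seen. Members and lists were chosen with earlier results of these data known.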

Additional observations from a re-analysis of the deposited data

How the results depend on the processing

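Counted without strand, the erythroid share fell from 0.197% to 0.0185% of miRNA reads, the ratio of Mir451a to Mir144 from 11.7 to 0, and the erythroid to leukocyte ratio from 1.90 to 0.171, because Mir451a has a gene on the opposite strand. The leukocyte share was 0.108% against 0.104%, although Mir142 fell to 0 reads. Reads on miRNA genes also fell, to 2968261 and 3263009 in replicates 1 and 2, which raised the other white cell genes on unchanged counts. Mir150 went from 279 to 334 CPM and Mir146 from 338 to 404 CPM. Of the 7 member levels, 6 moved by 1 SD or more without strand. Over all reads of the file, the erythroid share was 0.0807% and the leukocyte share 0.0426%. Over miRNA reads without the 5 most abundant genes, they were 0.322% and 0.170%. Leaving out a replicate gave erythroid shares of 0.187% to 0.207%, leukocyte shares of 0.0974% to 0.110%, Mir451a to Mir144 ratios of 11.1 to 12.3 and erythroid to leukocyte ratios of 1.88 to 1.91. With edgeR or DESeq2 library sizes, 7 of 7 levels moved by less than 1 SD. These sizes shift only the balance of the 2 libraries, so a mean over both could hardly move. The count of members called between the libraries was 1 at a 1.5-fold limit (Mir223) and 4 with no fold limit, where 37 and 163 of the 395 genes tested passed. The log2 ratio of Mir144, -0.01, became 0.039 with DESeq2 size factors and 0.019 without strand, where its counts stayed and the totals changed. That of Mir150, -0.05, became 0.00057 with DESeq2 size factors, and none of these passed the test. Depth limits the rarest member, Mir223, to 789 reads in both libraries together.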
